A study of Mus musculus with 2 samples.

Results

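The 6 genes described here are used as markers of the glia that surround neurons in peripheral ganglia. They are Mbp, Pmp22, Prx, Sox10, Fabp7 and Apoe. The members were taken by symbol from the rows of the deposited expression table, and all 6 of 6 were listed among its 14425 genes. The cells were not sorted as glia. They were spiral ganglion neurons, the afferent neurons of the cochlea, isolated by fluorescence and profiled one by one. Snap25, a vesicle fusion protein of neurons, and Tubb3, a neuronal tubulin, had a UMI (a unique molecular identifier, that is, 1 counted RNA molecule) in 100% of the cells of both libraries. What is described is therefore RNA of genes known from glia, counted in barcodes that also held neuronal RNA.

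Myelinating Schwann cells wrap axons and, in the cochlea, also the cell bodies of most spiral ganglion neurons. Compact myelin is held together by a small set of very abundant proteins. Satellite glia form a sheath around neuronal cell bodies without compact myelin and handle ions, lipids and transmitter. Type I neurons, the great majority of the ganglion, contact inner hair cells and are myelinated, whereas the sparse type II neurons contact outer hair cells and are mostly unmyelinated. Among type I neurons, a high Calb2 level marks the Ia subtype and a high Lypd1 level the Ic subtype.

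The study has 2 libraries, 1 for each genotype. The library labelled iCON came from Runx1-CreER/+; Ai14/+ mice and the library labelled iCKO from Runx1-CreER/Runx1F; Ai14/+ mice. Ai14 is a tdTomato reporter that Cre switches on, and both genotypes carried it together with the CreER driven from Runx1, so tdTomato marks cells in which, or in whose precursors, that driver was active after tamoxifen. All mice received tamoxifen at postnatal day 1 and were harvested at postnatal days 27 to 29, with both sexes combined. Spiral ganglia were digested with collagenase and papain, sorted for tdTomato and captured on a droplet 3′ platform. How many animals went into a library is not given in the sources used here. The iCON library held 462 cells and 22011292 UMIs (median 49725.5 a cell), and the iCKO library 407 cells and 13743824 UMIs (median 33602). Outside the cells low for both Calb2 and Lypd1, described below, Runx1 averaged 0.927 UMIs per 10000 in iCON and 1.15 in iCKO. In the cells low for both it had a UMI in 2 of 32 iCON cells (mean 0.0639) and in 0 of 8 iCKO cells. A 3′ count does not check the deletion, because which exons the Runx1F allele loses is not given in the sources used here. With 1 library a group there is no replicate check, so no p-value is given, and a genotype difference cannot be told apart from a difference between the preparations. The libraries shared 0 cell barcodes.

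Levels are UMIs per 10000 UMIs of a cell, averaged over cells, with the SD over cells. Because 3′ counting takes 1 tag a molecule, levels of different genes were set side by side without a length correction. Intervals are exact 95% Poisson (ratios) or Clopper-Pearson (shares) intervals. They cover counting error only, not animals or dissections, and the Poisson intervals do not cover the spread between cells either.

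The 3 myelin genes were abundant and were lower in the library labelled iCKO. Pmp22, a membrane protein of compact peripheral myelin, averaged 8.68 ± 7.05 UMIs per 10000 in iCON (SD, n = 462 cells; median 8.98, highest cell 38.7) and 5.37 ± 4.92 in iCKO (SD, n = 407 cells; median 6.14, highest 18.2). Mbp, the basic protein that joins the cytoplasmic faces of the myelin membrane, averaged 4.23 ± 3.38 in iCON (median 4.18, highest 22.4) and 2.67 ± 2.47 in iCKO (median 2.66, highest 10.7). Prx, a scaffold that ties the Schwann cell membrane to its cytoskeleton, averaged 0.578 ± 0.607 in iCON (median 0.479, highest 4.24) and 0.407 ± 0.506 in iCKO (median 0.282, highest 2.36). For each of the 3 every iCKO cell lay within the range of the iCON cells, which began at 0 as well and reached higher.

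The 3 other members were sparse. Sox10, the transcription factor of the Schwann cell and satellite glia lineage, averaged 0.109 ± 0.193 in iCON and 0.0843 ± 0.185 in iCKO, with a median of 0 in both. Fabp7, a fatty acid binding protein of satellite glia and immature Schwann cells, averaged 0.360 ± 1.93 in iCON and 0.0639 ± 0.195 in iCKO. Apoe, a lipid carrier made by satellite glia among other cells, averaged 0.876 ± 5.39 in iCON and 0.141 ± 0.521 in iCKO. Fabp7 and Apoe also had a median of 0 in both libraries, and their iCON means were carried by few cells, the highest at 21.6 for Fabp7 and 58.5 for Apoe.

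**Figure D1:**
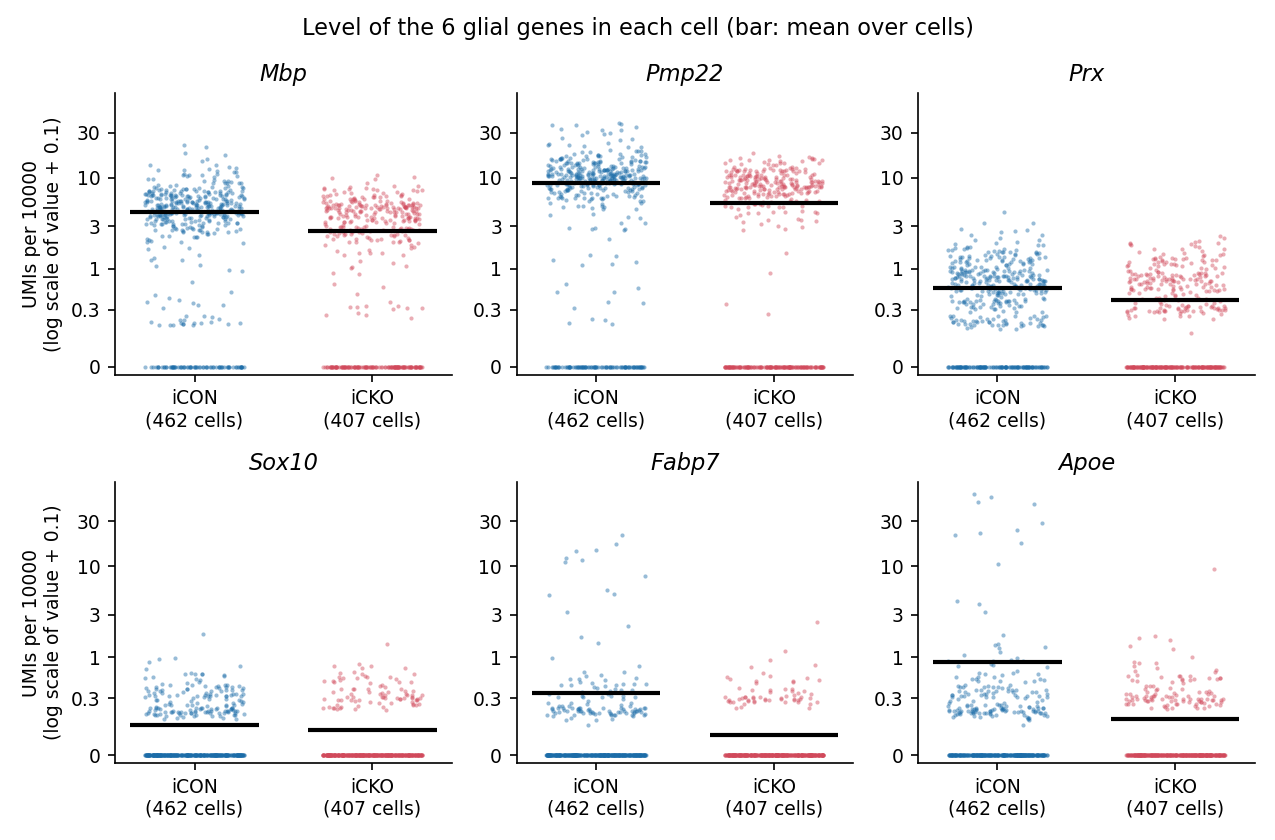
Each point is 1 cell of the iCON (462 cells) or iCKO (407 cells) library and the vertical axis is its level of a member in UMIs per 10000, on a log scale after adding 0.1; the black bar is the mean over cells. Mbp, Pmp22 and Prx form a band of cells at 0 and a band well above it in both libraries, while Fabp7 and Apoe lie near 0 except for a few cells, nearly all of them in iCON.

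On the log2 scale, with 0.05 UMIs per 10000 added to each mean, iCKO over iCON was -0.65 for Mbp, -0.69 for Pmp22, -0.46 for Prx, -0.25 for Sox10, -1.85 for Fabp7 and -2.28 for Apoe. Thus 4 of 6 members lay below -0.5, where 2.87% of the 10906 genes seen in at least 10% of the cells of either library did, and 0 of 6 lay above 0.5, where 1.27% did. The median over those genes was -0.04. From summed UMIs the interval of the log2 ratio was -0.64 to -0.56 for Pmp22 (18322 against 7543 UMIs), -0.64 to -0.53 for Mbp (8939 against 3719) and -0.55 to -0.26 for Prx (1219 against 574). It included 0 for Sox10, at -0.61 to 0.06 on 226 against 117 UMIs. Fabp7 (536 against 84 UMIs) and Apoe (1304 against 181) had the widest distance from 0, with intervals of -2.34 to -1.66 and -2.40 to -1.94. These 2 calls end without the 32 and 8 cells low for both Lypd1 and Calb2, described below, at -0.18 for Fabp7 and -0.16 for Apoe. In cells with Y-linked RNA they were 0.081 and 0.70.

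The myelin difference was described in 2 ways, by the share of cells with any myelin RNA and by the level in those cells. None of Mbp, Pmp22 and Prx was counted in 71 iCON cells (15.4%) and in 136 iCKO cells (33.4%). All 3 were counted in 328 iCON cells (71.0%) and 214 iCKO cells (52.6%). The libraries differ in depth. With every cell thinned to 20000 UMIs (454 and 405 cells kept, 8 and 2 too shallow), the cells with none were 15.9% and 35.1%. The cause of the difference was not tested. Among the 391 iCON and 271 iCKO cells with a UMI of at least 1 of these genes, the log2 ratio of iCKO to iCON was -0.31 for Mbp, -0.34 for Pmp22 and -0.15 for Prx. From summed UMIs the intervals in those cells were -0.31 to -0.20 for Mbp and -0.31 to -0.23 for Pmp22, both below 0. The interval for Prx was -0.23 to 0.06, which includes 0. This selection drops 136 cells at 0 from iCKO and 71 from iCON. Ratios nearer 0 than over all cells therefore follow from it and are not a separate result.

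The thinned shares of cells with a UMI followed the same order. They were 82.8% in iCON and 64.7% in iCKO for Mbp, 78.6% and 61.5% for Pmp22, and 54.6% and 42.0% for Prx. Sox10 stood at 18.3% and 12.6%. Fabp7 stood at 15.6% and 8.40%, and Apoe at 21.6% and 19.0%, so the share of cells with Apoe differed little where its mean differed most.

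Cells without the members were close in depth to the rest. None of the 6 was counted in 60 iCON cells, with a median of 48333 UMIs against 49799 in the others, and in 128 iCKO cells, with 31906 against 34153. Cldn19, a claudin of myelin sheaths, and Gjb1, a gap junction protein of myelin, had 0 UMIs in these cells of both libraries. Over the iCON cells with a member they averaged 0.448 and 0.412 UMIs per 10000, from 828 and 761 UMIs. Some other genes were low there but not at 0. Cnp, a myelin enzyme, had 30 UMIs in 21 of the 60 iCON cells (mean 0.115, against 1.96 in the cells with a member) and Glul, which makes glutamine, 48 UMIs in 34 of them (0.194 against 1.68). Cryab, a small heat shock protein, had 42 UMIs in 17 of them (0.145 against 9.25). In the 128 iCKO cells Cnp had 24, Glul 75 and Cryab 35 UMIs. S100b, on the list of satellite or non-myelinating glia genes used below, was not low. It averaged 9.86 in the 60 iCON cells and 11.6 in the cells with a member, and 12.1 and 12.8 in iCKO. Snap25 was close in both sets, at 30.6 and 31.2 in iCON. The source of this RNA was not tested.

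Mbp, Pmp22 and Prx varied together from cell to cell. The Spearman correlation between Mbp and Pmp22 was 0.78 over the 462 iCON cells and 0.83 over the 407 iCKO cells. For Pmp22 and Prx it was 0.70 and 0.73, and for Mbp and Prx 0.67 and 0.72. These are descriptions over cells of 1 library, which share its preparation and depth range. The correlations were lower once cells without a UMI of Mbp, Pmp22, Prx, Sox10 or Fabp7 were left out. The cause of this drop was not tested. Among cells with a UMI of any member but Apoe, Mbp and Pmp22 correlated at 0.65 in iCON and 0.50 in iCKO, Pmp22 and Prx at 0.56 and 0.38, and Mbp and Prx at 0.51 and 0.38. With all cells thinned to 20000 UMIs, Mbp and Prx correlated at 0.48 in iCON and 0.63 in iCKO.

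Mbp and Pmp22 RNA were nearly always counted together. Of the Mbp-positive cells, 93.0% in each library also had Pmp22, 85.5% in iCON and 79.3% in iCKO had Prx, and 40.4% and 31.7% had Sox10. Of the cells without Mbp, 6.58% of 76 in iCON and 0 of 136 in iCKO had Pmp22. Prx and Sox10 had a UMI in 0 of these 76 and 0 of these 136 cells, so Sox10 RNA was counted only where Mbp RNA was, among these libraries. Sox10 otherwise correlated weakly with the myelin genes, at 0.29 to 0.32 in iCON and 0.29 to 0.37 in iCKO, with at most a few UMIs a cell.

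Fabp7 and Apoe stood apart from this set. Their correlation with each other was 0.25 in iCON and 0.14 in iCKO, and without the cells low for both Lypd1 and Calb2 it was 0.13 in both. Apoe correlated with Mbp at 0.22 in iCON and 0.35 in iCKO, but at 0.10 and 0.11 among cells with a UMI of any other member, and Fabp7 with Mbp at 0.22 and 0.25. A UMI of Apoe was counted in 43.3% of Mbp-positive and 11.8% of Mbp-negative iCON cells, and in 38.4% and 4.41% of the iCKO cells. Of the Apoe-positive cells, 94.9% in iCON and 94.5% in iCKO also had Mbp, beside 83.5% and 66.6% of all cells. Most Apoe-positive cells were at a low Apoe level.

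**Figure D2:**
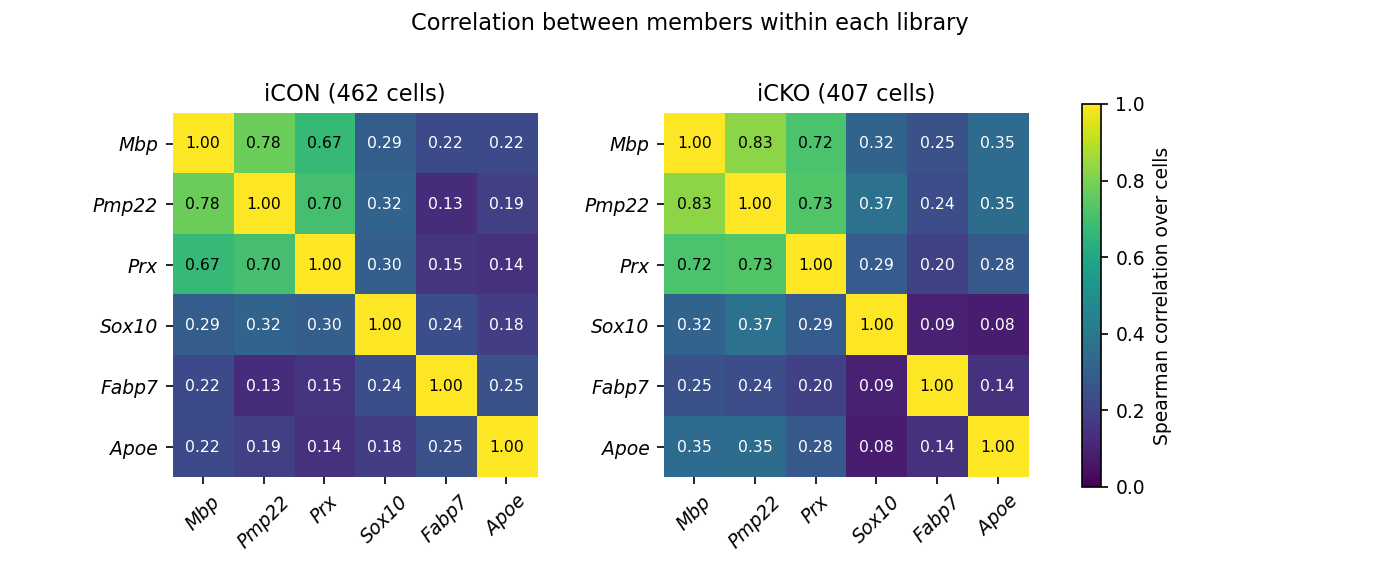
Spearman correlation over cells between each pair of members, within iCON (462 cells, left) and iCKO (407 cells, right); colour and number give the same value. Mbp, Pmp22 and Prx form a block at 0.67 to 0.83, and the pairs with Sox10, Fabp7 or Apoe lie at 0.37 or below.

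The genes with the most similar pattern were ranked by the mean of the within-library correlations over 10653 genes and 869 cells. Among those closest to Mbp were Pmp22 (0.80), Ndrg1 (0.75), Cryab (0.75) and Mal (0.75). Among those closest to Pmp22 were Igfbp6 (0.80), Mbp, Cd9 (0.78) and Mal (0.76). Among those closest to Prx were Pmp22 (0.72), Mbp (0.69), Igfbp6 (0.67) and Ndrg1 (0.67). Pmp22 and Mbp were thus near each other and both near Prx.

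The lists of the other members were weaker. Sox10 had Pou3f2 (0.38), Cnp (0.37), S100a6 (0.36) and Gpm6b (0.35) among its nearest. Apoe had Sepp1 (0.41), Cd63 (0.40), Ndrg1 (0.39) and Gpm6b (0.37). Fabp7 had Sparc (0.32), Serpine2 (0.31), S100a1 (0.30) and Dbi (0.30). Gpm6b appeared for both Sox10 and Apoe. Averaged over the 6 members, the 10 highest genes included Ndrg1, Cnp, Cryab, S100a6, Cd9, Gpm6b, Mal and Serpine2. The genes furthest below 0 against Mbp were Rtn4 (-0.34), Fgf12 (-0.33), Pvalb (-0.32), Nrn1 (-0.30) and Rufy3 (-0.29). When the cells low for both dividers were left out, all 5 neighbours of Mbp and of Prx, 4 of those of Pmp22, Sox10 and Apoe, and 3 of those of Fabp7 remained in the first 5.

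Pmp22 and Mbp stood in nearly the same ratio in both libraries. Summed over cells there were 2.05 Pmp22 UMIs for each Mbp UMI in iCON (interval 1.998 to 2.10) and 2.03 in iCKO (1.95 to 2.11), although both genes were lower in iCKO. Over single cells with at least 20 UMIs of the pair, the median ratio was 2.04 in iCON and 2.0 in iCKO. The central 80% of cells lay between 1.28 and 3.30 in iCON and between 1.19 and 3.43 in iCKO. The ratio of Prx to Mbp was 0.136 in iCON (0.128 to 0.145) and 0.154 in iCKO (0.141 to 0.169), intervals that overlap. The ratio of Sox10 to Mbp was 0.0253 (0.0221 to 0.0289) and 0.0315 (0.0259 to 0.0378), which also overlap. Fabp7 and Apoe differed more. Over all cells there were 0.0600 Fabp7 UMIs for each Mbp UMI in iCON (0.0549 to 0.0654) and 0.0226 in iCKO (0.0180 to 0.0280), and 0.146 Apoe UMIs in iCON (0.138 to 0.155) and 0.0487 in iCKO (0.0417 to 0.0565). Without the cells low for both Lypd1 and Calb2, described below, both directions turned. Apoe to Mbp was then 0.0305 in iCON (0.0269 to 0.0345) and 0.0435 in iCKO (0.0369 to 0.0509), and Fabp7 to Mbp 0.0153 (0.0128 to 0.0182) and 0.0212 (0.0167 to 0.0265). The intervals of Fabp7 overlapped and those of Apoe did not. Taken as the mean of per-cell log2 ratios over all cells, given below, both directions turned as well. Cells without a UMI of either gene count as equal in that mean, and iCKO had more cells without Mbp. In cells with at least 20 UMIs of the pair, the mean for Fabp7 was -4.19 in iCON and -4.29 in iCKO, which did not turn. For Apoe it was -3.93 and -3.86, close in the libraries.

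Because the members fall into a tightly coupled set and a loose one, the promoters of both are shown where RefSeq's table for GRCm38.p6 has them. Of the 6 members, 4 had an entry in the table: Pmp22 and Prx of the coupled set, and Fabp7 and Apoe. Each run is 300 bases, from 250 before to 50 after the start site, read 5′ to 3′ on the gene's strand, and for genes with several starts the most upstream entry is printed. Capitals mark ACAANG on either strand, a loose pattern for the letters bound by SOX factors. Because N takes any base, a marked run need not hold a full SOX core.
Pmp22, chr11:63128732-63129031, plus strand: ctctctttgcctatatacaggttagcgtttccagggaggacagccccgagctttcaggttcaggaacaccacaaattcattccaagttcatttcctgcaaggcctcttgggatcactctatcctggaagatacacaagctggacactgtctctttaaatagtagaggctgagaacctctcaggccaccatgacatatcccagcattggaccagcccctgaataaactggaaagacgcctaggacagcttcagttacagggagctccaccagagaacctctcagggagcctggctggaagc
Prx, chr7:27499074-27499373, plus strand: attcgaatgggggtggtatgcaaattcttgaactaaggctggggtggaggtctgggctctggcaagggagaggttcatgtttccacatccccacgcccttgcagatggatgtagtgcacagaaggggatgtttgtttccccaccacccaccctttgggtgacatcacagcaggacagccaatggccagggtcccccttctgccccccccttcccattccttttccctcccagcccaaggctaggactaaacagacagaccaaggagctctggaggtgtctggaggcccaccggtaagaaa
Fabp7, chr10:57784673-57784972, plus strand: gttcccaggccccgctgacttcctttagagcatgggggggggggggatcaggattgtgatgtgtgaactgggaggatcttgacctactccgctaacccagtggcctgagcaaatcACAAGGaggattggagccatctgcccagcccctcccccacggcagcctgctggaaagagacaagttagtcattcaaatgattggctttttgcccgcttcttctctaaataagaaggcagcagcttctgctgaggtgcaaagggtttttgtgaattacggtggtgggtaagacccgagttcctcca
Apoe, chr7:19699139-19699438, minus strand: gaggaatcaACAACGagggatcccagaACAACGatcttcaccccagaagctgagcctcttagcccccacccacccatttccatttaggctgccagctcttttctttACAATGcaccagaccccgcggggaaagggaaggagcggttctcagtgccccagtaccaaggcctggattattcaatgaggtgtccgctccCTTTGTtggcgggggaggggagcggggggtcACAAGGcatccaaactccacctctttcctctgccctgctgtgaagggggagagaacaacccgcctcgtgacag

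The letters ACAANG occurred 0 times in the Prx window and 0 times in all 4 Pmp22 windows. They occurred 1 time in the Fabp7 window and 5 times in the first of the 3 Apoe windows, with 0 in the others. Of the 32851 windows in the table, 41.2% hold at least 1 match, so a match is common. The EGR letters GCGTGGGNG, searched on both strands, occurred 0 times in the windows of these 4 genes and in 1.90% of all windows. In the GENCODE M21 annotation of GRCm38, whole Pmp22 spans chr11:63128982-63159547, Prx chr7:27499324-27520214, Fabp7 chr10:57784881-57788450 and Apoe chr7:19696109-19699188. Sox10 spans chr15:79154908-79165240 on the minus strand, and Mbp chr18:82475146-82585637 on the plus strand. A pseudogene, Rpl21-ps8, lies opposite Mbp, and Gm15541 lies opposite Prx. Whether the counting used strand is not given in the sources used here, so reads of these partners could not be separated.

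The cells were divided at 1000 UMIs per 1000000 (10 per 10000) of Lypd1 and of Calb2. There were 140 Lypd1-high cells in iCON and 30 in iCKO, 250 and 273 Calb2-high cells, 40 and 96 cells high for both, and 32 and 8 low for both. Within iCON, the myelin genes were highest in the Lypd1-high cells, where Pmp22 averaged 10.2 ± 6.42 (SD, n = 140 cells) and Mbp 4.88 ± 2.98. In Calb2-high iCON cells Pmp22 averaged 8.64 ± 7.19 and Mbp 4.30 ± 3.59 (SD, n = 250 cells). In cells high for both it was 8.72 ± 7.67 for Pmp22 and 3.33 ± 2.80 for Mbp (SD, n = 40 cells). The largest gap between these means, for Mbp, was smaller than the SD over cells. In iCKO the order was another: Pmp22 averaged 6.73 in cells high for both, 5.93 in Lypd1-high and 4.94 in Calb2-high cells, and Mbp 3.09, 2.46 and 2.60.

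The cells low for both were the exception. In the 32 iCON cells Pmp22 averaged 2.34 ± 3.799, Mbp 1.97 ± 2.90 and Prx 0.173 ± 0.359. Fabp7 averaged 4.22 ± 6.196 (median 0.480) and Apoe 10.8 ± 18.0 (median 0.323) there, against 0.0721 and 0.140 in the 430 other iCON cells. Sox10 was 0.122 and 0.108. On the log2 scale, low-for-both over the other iCON cells was 5.83 for Apoe, 5.13 for Fabp7, 0.12 for Sox10, -1.14 for Mbp, -1.56 for Prx and -1.94 for Pmp22. So 2 of 6 members lay above 1, where 8.99% of 11410 genes did, and 3 lay below -1, where 9.75% did. The 3 lower values did not pass -1 with a cut of 2000 for both dividers, which takes in 56 cells (-0.27 for Mbp, -0.21 for Prx and -0.36 for Pmp22). Among cells with a UMI of Mbp, Pmp22 or Prx, Mbp (-0.35) and Prx (-0.92) did not pass it either, and Pmp22 was at -1.16. Several neuronal genes, but not all, were lower in these cells too. Snap25 had a mean of 10.7 against 32.6 in the other iCON cells, and Tubb3 4.03 against 12.3. Slc17a7, a glutamate transporter, was at 0.690 against 5.17. The neuronal gene Map2 was not lower, at 5.26 against 5.20. The part of the neuronal genes in the myelin values was not tested.

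In iCKO the same split gave 8 cells. Their mean was 1.55 for Pmp22, 0.858 for Mbp, 0.369 for Fabp7 and 1.21 for Apoe, each from 2 cells with a UMI. A single cell, at 79487 UMIs the deepest of the library, held 75 of the 81 Pmp22 and 31 of the 37 Mbp UMIs. It had 0 UMIs of Gata3, Plk5, Prph and Th, the type II genes of the check described below. Sox10 had 0 UMIs in them, and 6 of the 8 had none of the 3 myelin genes. The 399 other iCKO cells averaged 5.45 for Pmp22, 2.71 for Mbp, 0.0578 for Fabp7 and 0.119 for Apoe.

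**Figure D3:**
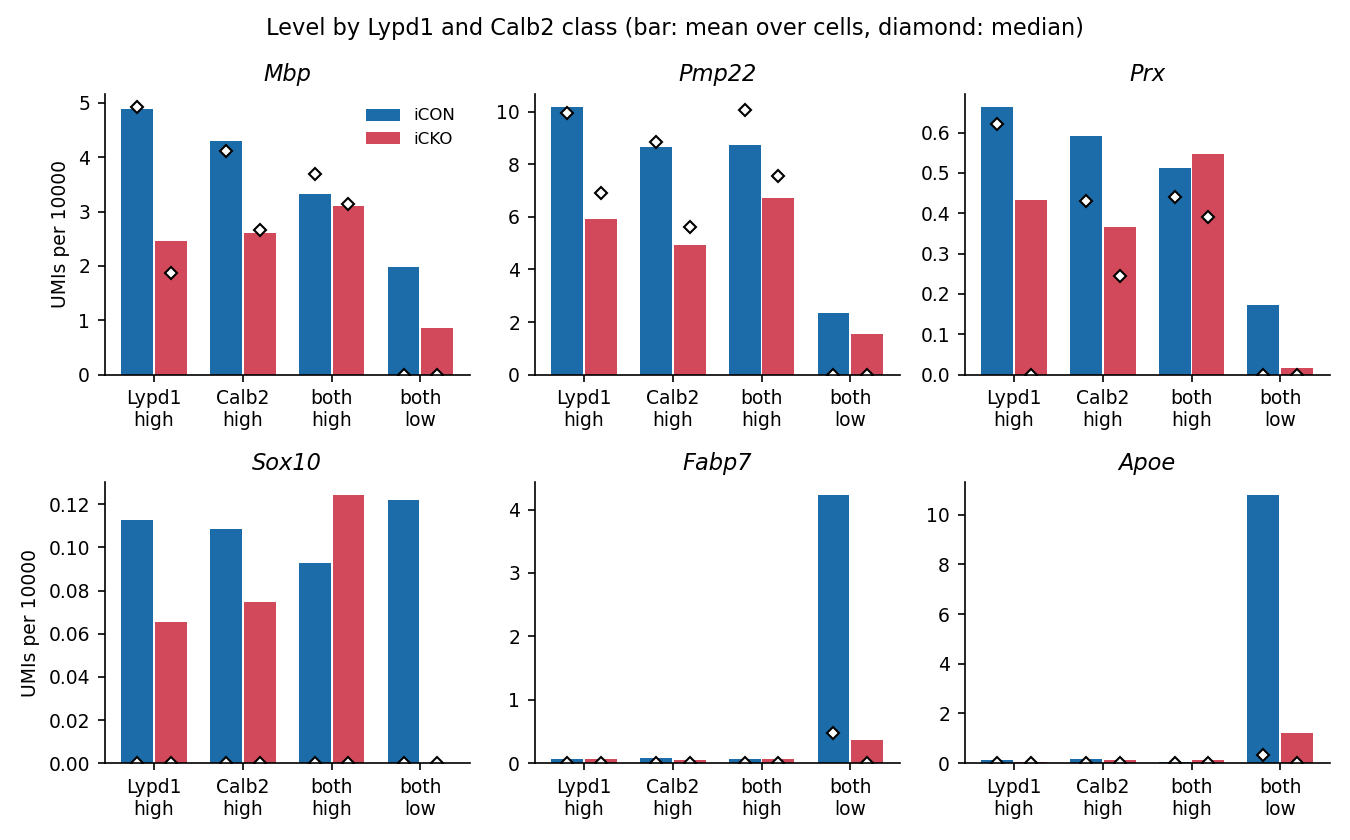
Mean level in UMIs per 10000 (bars) and median over cells (diamonds) of each member in the cells high for Lypd1, for Calb2, for both and for neither, in iCON (140, 250, 40 and 32 cells) and iCKO (30, 273, 96 and 8 cells). Myelin genes are lowest and, in iCON, Fabp7 and Apoe highest in the cells low for both, with medians far below the means for the last 2 genes.

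Within classes, the iCKO library was lower for the myelin genes in Lypd1-high cells (log2 ratio -0.97 for Mbp, -0.78 for Pmp22, -0.56 for Prx) and in Calb2-high cells (-0.71, -0.80 and -0.62). In the cells high for both it was -0.10 for Mbp, -0.37 for Pmp22 and 0.09 for Prx. The difference between these classes was not tested. The share of cells with none of the 3 genes moved with it: 14 of 140 Lypd1-high cells in iCON and 9 of 30 in iCKO, 13.6% and 35.9% of Calb2-high cells, and 17.5% and 24.0% of cells high for both.

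Against the level of Calb2, and without the cells low for both, the mean of Pmp22 was lowest in the highest bin in both libraries. In iCON it was 10.2 below 1000 UMIs per 1000000 of Calb2, 10.3 from 1000 to 5000, 7.57 from 5000 to 10000 and 7.03 above 10000. In iCKO the same bins gave 5.93, 6.67, 6.13 and 4.81, so only the last bin was below the first. The Spearman correlation of Pmp22 with Calb2 was -0.22 in iCON and -0.16 in iCKO, a weak correlation given as a description. With Lypd1 it was 0.08 and 0.11. Over the same cells, Pmp22 correlated with a cell's total UMIs at -0.21 in iCON and 0.10 in iCKO, so depth moved with it in opposite directions.

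The cells low for both Lypd1 and Calb2 carried genes of type II neurons. At least 3 of the 6 type II genes of the check had a UMI in 28 of the 32 iCON cells and 6 of the 8 iCKO cells, against 0 of 430 and 4 of 399 other cells. Plk5 was present in 30 of the 32 iCON cells, Th, which makes catecholamine precursors, in 26, and Prph, an intermediate filament protein, in 17, against 0, 0 and 2 of the 430 others. Gata3, a transcription factor, was present in 32 of 32 and in 332 of the 430 others, at a mean of 6.89 against 0.351. Smad3 and Etv4 had 0 UMIs. The cells were shallower, with a median of 32141 UMIs in iCON against 50564.5 in the other iCON cells.

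These 32 cells held 4.63% of the UMIs of the iCON library but 79.5% of its Apoe UMIs, 75.0% of its Fabp7 UMIs and 1.24% of its Pmp22 UMIs. With the cells low for both left out of each library, the log2 ratio of iCKO to iCON, given above for Fabp7 and Apoe, was -0.69 for Mbp, -0.74 for Pmp22, -0.50 for Prx and -0.22 for Sox10. Then 3 of 6 members lay below -0.5, where 2.24% of 10915 genes did, and 0 lay above 0.5, where 1.28% did.

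The low-for-both iCON cells were not alike. Among the 15 with at least 10 UMIs of Mbp, Pmp22, Prx, Fabp7 and Apoe together, 10 had more Fabp7 and Apoe than myelin UMIs and 5 had fewer. The other 17 had under 10 such UMIs. In the 10 cells Apoe ranged from 23 to 207 UMIs (median 86.5), Fabp7 from 11 to 59 (median 38) and Pmp22 from 3 to 16 (median 8). In the 5 cells Pmp22 ranged from 5 to 54 (median 27), Apoe from 2 to 15 (median 5) and Fabp7 from 2 to 17 (median 8). In the sets of 10, 5 and 17 cells Gata3 had a median of 24, 23 and 22 UMIs, Snap25 of 21.5, 20 and 29, and Prph of 3.5, 4 and 0. Gata3 was thus close in the 3 sets, while Snap25 was higher and Prph lower in the cells with few glial UMIs.

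Outside these cells, Fabp7 and Apoe exceeded the myelin genes in 0 of 339 iCON and 0 of 248 iCKO cells with at least 10 such UMIs. Among the iCKO cells low for both, 1 of 2 did, with 19 Apoe and 5 Fabp7 UMIs. Over both libraries a cell had at least 10 Apoe UMIs in 13 cases, 12 of them low for both, and at least 10 Fabp7 UMIs in 11, all low for both and in iCON. Macrophages also make Apoe. In the 10 cells the macrophage genes Aif1 and Csf1r, the 2 listed of 6, summed to 4 and 1 UMIs, beside 1000 of Apoe. These 4 were all the Aif1 UMIs of the iCON library, and its 3 Csf1r UMIs all lay in cells low for both. The part of macrophage RNA was not tested.

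**Figure D4:**
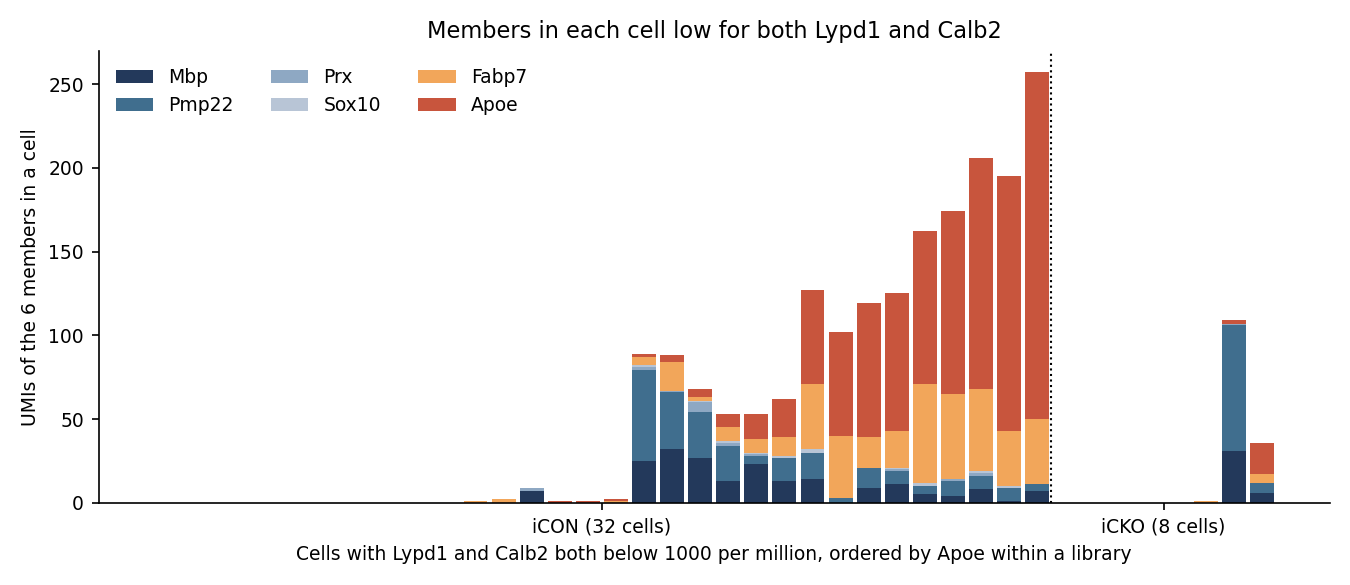
Each bar is 1 cell with Lypd1 and Calb2 both below 1000 UMIs per 1000000 (32 in iCON, 8 in iCKO), ordered by its Apoe count within a library; the stacked height is the number of UMIs of each member. The right-hand iCON cells are dominated by Apoe and Fabp7, a few by Pmp22 and Mbp, and the remaining cells hold few UMIs of any member.

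The ratios set the same cells apart. Apoe UMIs for each Mbp UMI came to 5.21 (4.47 to 6.10) in the iCON cells low for both, against 0.0134 to 0.0352 in the 3 other iCON classes. Fabp7 for each Mbp came to 2.02 (1.70 to 2.41), against 0.0127 to 0.0178. Pmp22 for each Mbp was 1.15 (0.943 to 1.39) there, below the 2.04 of Lypd1-high, 2.02 of Calb2-high and 2.55 (2.33 to 2.79) of cells high for both. Apoe for each Fabp7 was 2.58 (2.30 to 2.90) in the cells low for both, 2.15 (1.47 to 3.19) in Lypd1-high and 2.10 (1.60 to 2.77) in Calb2-high cells. In the iCON cells high for both it was 0.75 (0.279 to 1.94), from 9 Apoe and 12 Fabp7 UMIs.

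**Figure D5:**
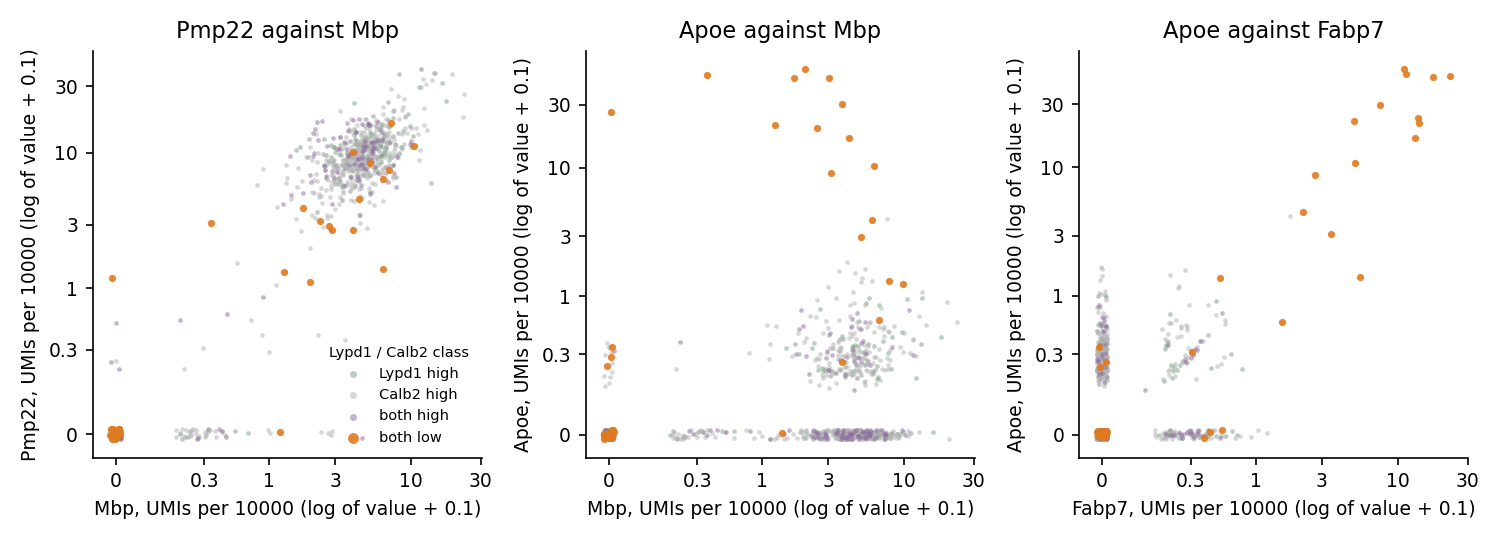
Each point is 1 of 869 cells of both libraries, coloured by Lypd1 and Calb2 class; axes give UMIs per 10000 on a log scale after adding 0.1, with a small random offset so that points at 0 can be seen. Pmp22 is high in most cells where Mbp is high (left), whereas high Apoe is found with little or moderate Mbp (middle) and together with high Fabp7 (right), nearly always in cells low for both dividers.

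RNA of the X-linked gene Xist and of Y-linked genes divided the cells of the pooled sexes. Xist without Y-linked RNA was counted in 252 iCON and 319 iCKO cells, and Y-linked RNA without Xist in 202 and 82. The make-up by sex thus differed between the libraries. Of the cells low for both, 31 had Xist and 1 Y-linked RNA in iCON, whereas 1 had Xist and 7 Y-linked RNA in iCKO. Genotype and sex cannot be told apart in these cells. Among all cells with Xist RNA, the log2 ratio of iCKO to iCON was -0.52 for Mbp, -0.53 for Pmp22, -0.30 for Prx and -0.08 for Sox10. Among cells with Y-linked RNA it was -1.25, -1.20, -0.997 and -0.62. Mbp, Pmp22 and Prx were thus lower in iCKO in both sets, by more in the cells with Y-linked RNA, a difference that was not tested. For Sox10 the summed interval in the Xist cells was -0.45 to 0.38, on 106 against 97 UMIs, which includes 0, and in the cells with Y-linked RNA -1.78 to -0.11, on 112 against 15 UMIs.

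Members were set against the gene lists of their cell types. Of 17 Schwann cell myelin genes, which include Mbp, Pmp22 and Prx, 15 passed detection. In iCKO 9 of them lay below -0.5 and 0 above 0.5, where 2.87% and 1.27% of all genes did, with a median of -0.57 against -0.04 over all genes. Mbp and Pmp22 are 2 of the 9. Gjb1 was at -0.72 and Mal at -0.57, while Ugt8a, a galactolipid enzyme, was at 0.21. None of the 4 detected regulators of the Schwann lineage passed -0.5 (0 of 4, median -0.17). Of 10 detected satellite or non-myelinating glia genes, which include Fabp7 and Apoe, 5 lay below -0.5 with a median of -0.50. The members Fabp7 and Apoe are 2 of these 5. Without the cells low for both 2 of 10 did (2.24% of all genes), with a median of -0.11, and neither was Fabp7 or Apoe.

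Most genes of other cell types were near 0, apart from the fibroblast genes Col1a2 and, at a lower level, Dcn. The 3 listed of 6 central oligodendrocyte genes summed to 17 UMIs in iCON and 7 in iCKO, the 2 listed of 6 macrophage genes to 7 and 2, the 1 listed of 6 cochlear supporting cell genes to 9 and 3, and the 1 listed of 3 endothelial genes to 1 and 2. The 4 listed of 5 fibroblast genes had a summed mean of 1.05 UMIs per 10000 in iCON and 0.791 in iCKO. These sums lay above the means of Prx, Sox10, Fabp7 and Apoe. Col1a2, a collagen chain, made up most of each sum, with 2041 and 1035 UMIs and a UMI in 65.02% of cells. Dcn had 169 and 89 UMIs and a UMI in 19.0% of cells. Col1a1 had only 10 and 3 UMIs and Lum 17 and 7, and neither passed detection. In iCON Dcn averaged 0.256 in the cells low for both and 0.0706 in the others. Pmel, the 1 listed of 4 melanocyte genes, had 108 and 94 UMIs. The part of these genes in the member differences was not tested. Of 9 detected dissociation response genes 2 lay below -0.5 (median -0.22) and of 9 lipid synthesis genes 1 did (median -0.39), again beside 2.87% of all genes.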

How the data were processed

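The 6 members and all gene lists were chosen with earlier results of these data known. Each group is 1 library of single cells. The submitters' processing notes name Cell Ranger, Seurat and the mm10 build, without roles. The values the authors deposited are the natural log of 1 plus CPM. Undone, they sum to 1000000 a cell, and 100% of the values above 0 were whole multiples of the cell's smallest step (tolerance 1e-06), so whole UMI counts were recovered. No cell was removed and no doublets were called. Computed from these counts were levels per 10000, log2 ratios of means (pseudocount 0.05), exact intervals, Spearman correlations and counts thinned to 20000 UMIs (Python 3.11.15, numpy 2.4.6, pandas 2.3.3, scipy 1.17.1). A gene passed detection in at least 10% of the cells of a library. The text names the members, the fixed lists, the 5 nearest genes of each member, the 10 nearest on average and the 5 furthest from Mbp. The calculations were checked on simulated counts. Some results that the naming rule covers are not reported here.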

Additional observations from a re-analysis of the deposited data

Results flagged for a closer look

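Fabp7 and Apoe had opposite signs in the cells with Xist and with Y-linked RNA. The log2 ratio of iCKO to iCON was -2.61 in cells with Xist and 0.081 in cells with Y-linked RNA for Fabp7, and -3.18 and 0.70 for Apoe. The difference between the sets was not tested. The cells low for both Lypd1 and Calb2 were divided 31 to 1 between Xist and Y-linked RNA in iCON and 1 to 7 in iCKO. Without them the ratios were -0.21 and -0.35 for Fabp7 and -0.36 and -0.10 for Apoe, so the opposite signs were no longer present.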

How the results depend on the processing

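No library was left out, since each group is 1 library. No paired analysis was possible because each group is 1 library. The depth limits Sox10, at 226 and 117 UMIs.

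For iCKO over iCON, Mbp, Pmp22, Prx and Sox10 stayed below 0 under all 12 alternatives of each, and Fabp7 and Apoe under 11. In the order Mbp, Pmp22, Prx, Sox10, Fabp7, Apoe, cells with Y-linked RNA gave -1.25, -1.20, -0.997, -0.62, 0.081 and 0.70. In the same order without Sox10, cells with Xist gave -0.52, -0.53, -0.30, -2.61 and -3.18, and a pseudocount of 0.5 gave -0.58, -0.64, -0.25, -0.61 and -1.10. A pseudocount of 0.01 gave -2.32 for Fabp7 and -2.56 for Apoe. Summed UMIs gave -0.59 for Mbp and -0.60 for Pmp22. Size factor scaling gave -0.65 for Pmp22. Equal weight for the 4 classes gave -0.64 for Pmp22, -2.63 for Fabp7 and -2.73 for Apoe. Without cells with 4 or more type II genes Fabp7 was -1.38 and Apoe -1.76. Of the settings added after seeing the data, leaving out cells low for both gave -0.74 for Pmp22, -0.18 for Fabp7 and -0.16 for Apoe, and cells with a UMI of Mbp, Pmp22 or Prx gave -0.31, -0.34 and -0.15 for those 3 genes.

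For cells low for both over other iCON cells, in the order Pmp22, Fabp7, Apoe, a cut of 2000 gave -0.36, 4.33 and 5.07, taking in 56 cells instead of 32. The cells with Y-linked RNA gave -7.54, -1.27 and -1.64 from 1 cell low for both. Cells with a UMI of Mbp, Pmp22 or Prx gave -1.16, 5.99 and 6.70, and thinning gave 6.08 for Apoe. The correlation of Mbp and Pmp22 was 0.92 in iCON and 0.95 in iCKO as Pearson of log values, and 0.65 and 0.50 among cells with a UMI of any member but Apoe. That of Fabp7 and Apoe in iCON was 0.40 by Pearson, 0.37 in cells with Xist, 0.052 in cells with Y-linked RNA and 0.13 without cells low for both. As the mean of per-cell log2 ratios over all cells, each member plus 1 UMI, Pmp22 to Mbp was 0.69 in iCON and 0.54 in iCKO, against 1.04 and 1.02 from sums, and Apoe to Mbp was -2.98 and -2.10. The per-cell Apoe values turned the direction between the libraries, which was -2.78 and -4.36 from sums. Fabp7 to Mbp turned too, at -3.20 in iCON and -2.26 in iCKO per cell, against -4.06 and -5.47 from sums. Cells without a UMI of either gene count as equal in these per-cell means. In cells with at least 20 UMIs of the pair, Fabp7 to Mbp was -4.19 and -4.29, and Apoe to Mbp -3.93 and -3.86. Without cells low for both, Apoe to Mbp was -5.03 in iCON and -4.52 in iCKO, which also turned the direction. The cause of each change was not tested.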

Other observations

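Gldn, the protein gliomedin, which Schwann cells use to gather sodium channels at nodes, went with the cells low for both, at a mean of 16.4 UMIs per 10000 in the 32 iCON cells and 2.04 in the other 430. Ugt8a went the other way, at 0.125 and 1.58. Both stood on the Schwann cell myelin list and were singled out after their values were seen, and both had a UMI in over 90% of all cells (90.2% and 95.3%), beyond the 75.6% of Mbp. Their source was not tested.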
